A study of Mus musculus with 9 samples.

Results

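Clock output factors are transcription factors through which the circadian clock passes its rhythm on to other genes, and 8 of them were followed here in whole ovaries of mice: Dbp, Tef, Hlf, Nfil3, Bhlhe40, Bhlhe41, Ciart and Rora. They were chosen by name, with their values in these data already known, and all 8 were found among the 33450 rows of the gene table. Where a gene had several rows, the row with the highest mean over the groups was used. All animals were 15-week-old mice of the inbred strain C57BL/6J, fed their diet for 10 weeks. The HFOB group is 3 mice that became obese on the 60% fat diet, the HFLN group is 3 mice that remained lean on that same diet, and the control group is 3 mice on a 16% fat standard chow. How an animal responded to the diet, and not assignment, therefore separates HFOB from HFLN. Neither the time of day of collection nor the stage of the oestrous cycle is stated in the labels.

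The circadian clock is a transcriptional loop in which CLOCK and BMAL1 activate genes through E-box elements and the products of some of those genes repress them in turn. Dbp, Tef and Hlf encode PAR bZIP proteins, which activate genes through D-box elements, and Nfil3 (also called E4BP4) encodes a related bZIP protein that occupies the same elements and represses. Bhlhe40 and Bhlhe41 (DEC1 and DEC2) bind E-boxes as repressors, Ciart (CHRONO) represses CLOCK and BMAL1, and Rora activates through RORE elements, which the repressors Nr1d1 and Nr1d2 also bind. Clock genes are known to be expressed in follicle and luteal cells of rodent ovaries, and Nfil3 and Bhlhe40 are also known in many cell types as genes that external stimuli induce.

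Expression was measured by RNA sequencing and is given as FPKM, fragments scaled to transcript length and to the number of mapped fragments, so that levels of different genes can be compared per length. The authors deposited 1 FPKM per group with a lower and an upper bound, called the deposited interval below. No value of a single animal was used, so no SD, n or p-value stands behind a value, and the depth is unknown. In whole-ovary RNA, fewer cells of a type and less RNA per cell cannot be told apart. Defining markers of the ovary were present in all groups: the granulosa gene Amh stood at 187 FPKM in HFOB, 176 in HFLN and 181 in control, and the oocyte gene Zp3 at 54.4 in HFOB, 53.0 in HFLN and 52.2 in control. Summed over 5 markers, oviduct and cilia genes reached 341 FPKM in HFOB, 517.5 in HFLN and 419.8 in control, and 6 adipocyte markers 248 in HFOB, 202 in HFLN and 214.5 in control. That sum hides unequal members, at a median log2 ratio over control of 0.70 in HFOB and -0.15 in HFLN. The leptin gene Lep passed the call rule given below in HFOB, at 2.101 FPKM in HFOB, 0.332 in HFLN and 0.223 in control. Lep met the minimum of 1 FPKM for that rule only through HFOB, the group where it is high. Cfd, whose intervals reach 0, stood at 62.2 FPKM in HFOB, 86.4 in HFLN and 103 in control. NK and T cell markers were low throughout, at a sum of 3.53 FPKM in HFOB, 3.90 in HFLN and 2.82 in control over 4 rows, and no marker of any of these lists was listed at 0.

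RefSeq promoter windows of GRCm38.p6, the assembly behind the mm10 build that the authors used, were searched on both strands for the E-box CACGTG, the D-box TTANNTAA and the RORE cores TAGGTCA and TGGGTCA. A window holds 250 bases before and 50 bases after an annotated transcription start, and 8 windows were given for 7 of the members, all but Bhlhe40. The E-box and the D-box read alike on both strands, so each match counts once. The windows below are those with a match, which stands in capitals, and they are shown because they separate members with an E-box in the window from Nfil3, which has a RORE core in its own.

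Ciart, chr3:95882179-95882478, minus strand, 3 E-boxes: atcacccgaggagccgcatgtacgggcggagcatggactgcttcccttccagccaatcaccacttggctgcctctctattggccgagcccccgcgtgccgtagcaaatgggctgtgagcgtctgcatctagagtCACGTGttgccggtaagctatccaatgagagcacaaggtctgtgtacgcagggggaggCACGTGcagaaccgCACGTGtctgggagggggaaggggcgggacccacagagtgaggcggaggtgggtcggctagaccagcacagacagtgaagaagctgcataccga

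Bhlhe41, chr6:145865371-145865670, minus strand, 1 E-box: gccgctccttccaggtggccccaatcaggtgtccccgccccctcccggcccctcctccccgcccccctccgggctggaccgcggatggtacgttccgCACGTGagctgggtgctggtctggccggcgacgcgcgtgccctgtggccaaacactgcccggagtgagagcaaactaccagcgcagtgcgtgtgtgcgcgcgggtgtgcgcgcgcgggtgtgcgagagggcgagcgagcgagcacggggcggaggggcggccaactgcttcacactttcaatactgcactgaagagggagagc

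Tef, chr15:81802423-81802722, plus strand, 1 D-box and then 1 E-box: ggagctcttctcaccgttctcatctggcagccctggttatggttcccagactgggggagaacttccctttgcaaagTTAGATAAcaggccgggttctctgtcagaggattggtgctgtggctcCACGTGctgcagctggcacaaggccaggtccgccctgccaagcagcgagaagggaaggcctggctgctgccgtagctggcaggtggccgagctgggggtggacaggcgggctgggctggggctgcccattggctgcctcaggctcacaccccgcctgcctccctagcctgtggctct

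Tef, chr15:81811164-81811463, plus strand, second annotated start, 1 E-box: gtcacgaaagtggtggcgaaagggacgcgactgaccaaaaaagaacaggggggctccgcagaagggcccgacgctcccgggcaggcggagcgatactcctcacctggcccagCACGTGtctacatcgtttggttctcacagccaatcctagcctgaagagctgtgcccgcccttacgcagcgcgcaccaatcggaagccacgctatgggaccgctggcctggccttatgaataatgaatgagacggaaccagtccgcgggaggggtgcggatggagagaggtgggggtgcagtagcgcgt

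Nfil3, chr13:52980990-52981289, minus strand, 1 RORE core read on the other strand: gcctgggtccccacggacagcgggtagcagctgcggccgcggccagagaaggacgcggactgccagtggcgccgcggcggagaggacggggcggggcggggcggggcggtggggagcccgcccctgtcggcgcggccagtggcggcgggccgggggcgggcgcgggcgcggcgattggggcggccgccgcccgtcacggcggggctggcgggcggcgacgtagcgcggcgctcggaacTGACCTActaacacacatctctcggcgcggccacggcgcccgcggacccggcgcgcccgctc

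Among all 32851 windows, 7.15% held the E-box, 6.00% the D-box and 6.45% a RORE core. At least 3 E-boxes, as in the Ciart window, occurred in 29 windows. The 3 E-boxes of Ciart began 116, 58 and 44 bases before the start, and the single RORE core of Nfil3 began 12 bases before the start that its window was built on. That start, at base 52981039, lies 1839 bases inside the annotated span of Nfil3 and 814 bases inside the locus of its row, so the window does not cover the upstream end of either. The second Tef window likewise belongs to a start 8741 bases inside the gene, while for the other windows the start lay at most 382 bases inside the annotated span. The windows of Dbp, Hlf and Rora held none of these letters, which says nothing of elements elsewhere in those genes. A match is a run of letters and not a shown binding site.

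**Figure D1:**
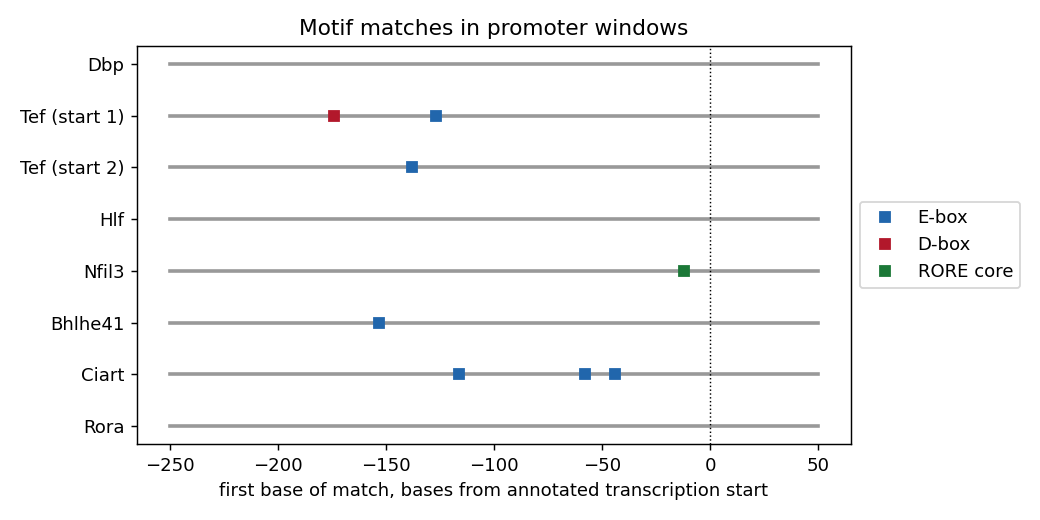
Promoter windows of 7 clock output factors, drawn as grey lines from 250 bases before to 50 bases after the annotated transcription start on the x axis, with the first base of each motif match as a square. Ciart carries 3 E-boxes, Bhlhe41 and both Tef windows 1 each, and Nfil3 a RORE core 12 bases before the start of its window, which lies inside the annotated gene.

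Obese mice were compared with chow-fed mice, as the design asks for ovarian expression that differs with the diet. The activators of D-box genes stood higher and the repressors Nfil3 and Bhlhe40 lower in HFOB, but the deposited intervals overlapped for each of the 8 members. A row was said to pass when the intervals of both groups did not overlap and the ratio of FPKM was at least 1.5 in either direction. By that rule 0 of 8 members passed in HFOB against control, where 0.372% of the 16929 rows considered did. Rows were considered when at least 1 group reached 1 FPKM and both groups had the status OK. On the ratio alone, 2 members were at least 1.5-fold higher (2.58% of all rows) and 2 at least 1.5-fold lower (4.48% of all rows). The median log2 ratio of the 8 members was 0.12, against -0.01 for all rows. The members were chosen with these values known, so nothing is read from the counts.

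**Figure D2:**
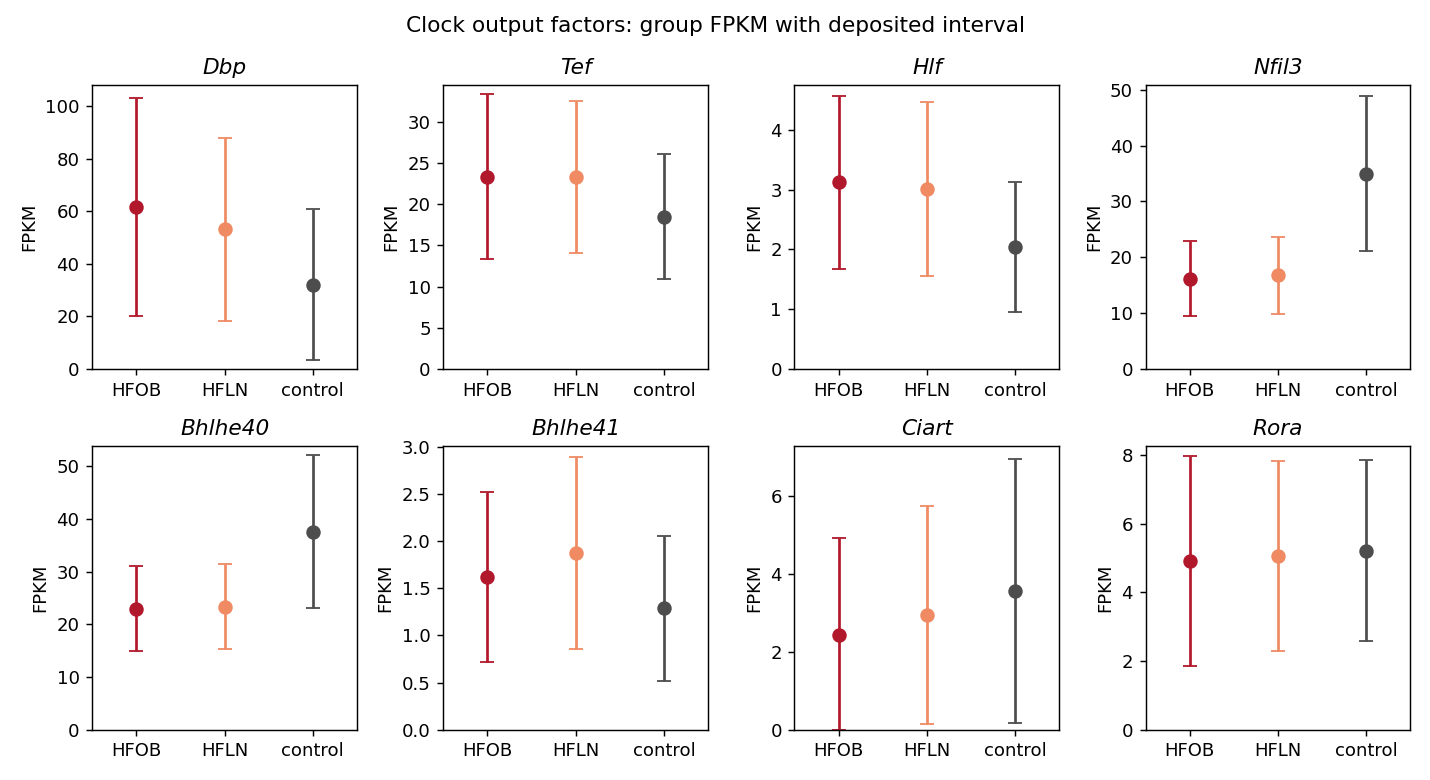
FPKM of each clock output factor in HFOB, HFLN and control ovaries, 1 point per group, with the deposited interval as bars. Nfil3 stands at 16.2 FPKM in HFOB, 16.8 in HFLN and 35.0 in control, and the bars of all 3 groups overlap in every panel.

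Dbp, the PAR bZIP gene best known for a strong daily rhythm in liver, lies on chromosome 7 at 45705100 to 45710203. It stood at 61.7 FPKM in HFOB (interval 20.2 to 103), 53.2 in HFLN (18.4 to 88.1) and 32.1 in control (3.37 to 60.8). Dbp was the highest of the 8 members in both diet groups, and its ratio was 1.92 in HFOB over control and 1.66 in HFLN over control. A ratio at least as high was found in 1.18% of rows for HFOB and 2.06% for HFLN. The interval of Dbp was wide, with a half-width of 67.3% of the value in HFOB, 65.5% in HFLN and 89.5% in control. Among the 4369 rows with a mean of 20 to 100 FPKM, the median half-widths were 38.1% in HFOB, 37.8% in HFLN and 38.5% in control, and the 90th percentiles were 65.0% in HFOB, 63.6% in HFLN and 66.8% in control.

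The span of Dbp shares 741 bases with Sphk2, a sphingosine kinase gene on the opposite strand. How the counting treated strand is not stated, so reads of the shared bases may have been given to either gene. Sphk2 stood at 23.2 FPKM in HFOB, 20.9 in HFLN and 22.6 in control, with ratios over control of 1.03 in HFOB and 0.928 in HFLN. The locus of the Dbp row also ran on to base 45720835, across Sphk2 and the ribosomal protein gene Rpl18, which have rows of their own. Rpl18 stood at 146 FPKM in HFOB, 106 in HFLN and 144 in control.

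Tef, the PAR bZIP gene with 2 annotated promoter windows above (chromosome 15, 81802673 to 81826863), had ratios nearer to 1. Its values were 23.3 FPKM in HFOB (13.3 to 33.4), 23.4 in HFLN (14.1 to 32.6) and 18.5 in control (10.9 to 26.1), a ratio of 1.26 over control in each diet group. A second, weaker row of Tef showed the same order against control, at 2.63 FPKM in HFOB, 2.92 in HFLN and 1.97 in control. Hlf, the least abundant of the PAR bZIP genes here (chromosome 11, 90336535 to 90390917), stood at 3.13 FPKM in HFOB (1.68 to 4.57), 3.01 in HFLN (1.56 to 4.46) and 2.04 in control (0.953 to 3.13). The ratio of Hlf was 1.53 in HFOB over control and 1.47 in HFLN over control, on either side of 1.5. On the FPKM + 1 scale the first of these was 1.36. All 3 activators were thus higher in both diet groups than in control, with intervals that overlapped in each case.

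Nfil3, the D-box repressor (chromosome 13, 52967209 to 52982878), showed the lowest ratios of the 8 members. It stood at 16.2 FPKM in HFOB (9.48 to 22.9), 16.8 in HFLN (9.91 to 23.6) and 35.0 in control (21.1 to 48.9). Control was 2.16-fold above HFOB and 2.09-fold above HFLN, on log2 ratios of -1.11 in HFOB and -1.06 in HFLN. The intervals missed separation narrowly: the upper bounds, 22.9 FPKM in HFOB and 23.6 in HFLN, lay just above the lower bound of control, 21.1. As low a ratio was found in 1.54% of rows for HFOB and 2.08% for HFLN.

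An interval for the difference itself was also formed, from the root of the summed squares of both half-widths, a measure chosen after the values were seen. For Nfil3 the difference from control was -18.8 FPKM in HFOB (-34.3 to -3.37) and -18.2 in HFLN (-33.7 to -2.69), so that both intervals lay below 0. For Dbp it was 29.6 FPKM in HFOB (-20.9 to 80.1) and 21.2 in HFLN (-24.0 to 66.3), and for Bhlhe40 -14.5 in HFOB (-31.2 to 2.09) and -14.2 in HFLN (-30.8 to 2.37). Nfil3 was the 1 member of 8 whose difference excluded 0, in each comparison with control. The same held for 0.567% of rows in HFOB against control and 0.567% in HFLN against control. The comparisons share the control group, so they are not independent of each other.

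Bhlhe40 and Bhlhe41, a pair of related E-box repressors that both lie on chromosome 6, stood on opposite sides of control. Bhlhe40 (108660629 to 108666925) was at 23.0 FPKM in HFOB (14.9 to 31.1), 23.3 in HFLN (15.3 to 31.3) and 37.5 in control (23.0 to 52.0). Control was 1.63-fold above HFOB and 1.61-fold above HFLN. Bhlhe41 (145858243 to 145865420) was at 1.62 FPKM in HFOB (0.716 to 2.52), 1.88 in HFLN (0.861 to 2.89) and 1.29 in control (0.518 to 2.06), with ratios over control of 1.25 in HFOB and 1.46 in HFLN. Per length, Bhlhe40 was thus the abundant member of the pair in all groups.

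Ciart, whose window holds 3 E-boxes (gene at chromosome 3, 95878500 to 95882257), was at 2.44 FPKM in HFOB (0 to 4.93), 2.94 in HFLN (0.133 to 5.74) and 3.56 in control (0.175 to 6.94). Its half-widths were 102% of the value in HFOB, 95.5% in HFLN and 95.1% in control, so these data hold little information on it. The whole Ciart span of 3758 bases lies within C920021L13Rik, a long non-coding RNA gene on the opposite strand, which stood at 0.752 FPKM in HFOB, 0.625 in HFLN and 0.693 in control. The locus of the Ciart row also ran to base 95892005, into the protein-coding gene BC028528 on the same strand, which has a row of its own. BC028528 stood at 11.4 FPKM in HFOB, 11.8 in HFLN and 12.3 in control. Rora, the RORE activator (chromosome 9, 68653404 to 69388246), was at 4.91 FPKM in HFOB (1.85 to 7.96), 5.04 in HFLN (2.28 to 7.81) and 5.21 in control (2.57 to 7.85), and had the ratio closest to 1 of all members, 0.942 in HFOB and 0.969 in HFLN over control. Both further rows of Rora stayed below 0.4 FPKM in every group.

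Mice that remained lean on the 60% fat diet were next set against the controls. Both comparisons use the same control values. In HFLN 0 of 8 members passed (0.283% of 16932 rows did), 1 was at least 1.5-fold higher (3.71% of rows) and 2 were at least 1.5-fold lower (4.29% of rows). The higher member was Dbp and the lower ones were Nfil3 and Bhlhe40. Just outside 1.5 lay Hlf at 1.47 and Bhlhe41 at 1.46 in HFLN, and Ciart in HFOB, which control exceeded 1.46-fold. The median log2 ratio of the members was 0.14, against 0.00 for all rows.

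**Figure D3:**
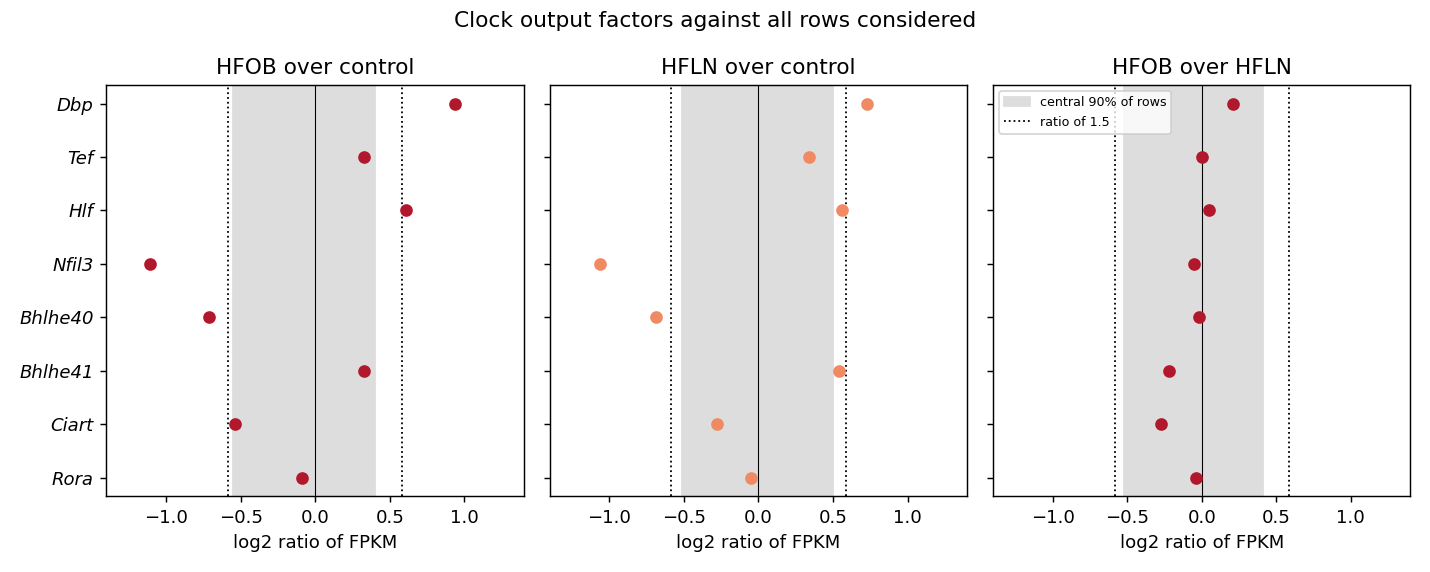
Log2 ratio of FPKM of each clock output factor in HFOB over control, HFLN over control and HFOB over HFLN, 1 point per gene, with the central 90% of all rows considered in grey and ratios of 1.5 dotted. Dbp, Hlf, Nfil3 and Bhlhe40 lie outside the grey band in both comparisons with control, and Bhlhe41 lies above it in HFLN over control only. No member lies outside it between HFOB and HFLN.

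Obese and lean mice on the high-fat diet were set against each other directly, a comparison that does not use the control group. Here 0 of 8 members passed (0.207% of 16931 rows did), and none was 1.5-fold higher (2.97% of rows) or 1.5-fold lower (4.39% of rows). Nor did the interval of the difference exclude 0 for any member, against 0.372% of rows. The log2 ratios ran from -0.27 for Ciart to 0.21 for Dbp. For Nfil3 HFOB and HFLN differed by -0.599 FPKM (-10.2 to 8.98), for Tef by -0.0247 (-13.7 to 13.6) and for Dbp by 8.42 (-45.8 to 62.6). Differences smaller than these intervals could not be detected.

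The balance of D-box activators and repressor was expressed as the FPKM of Dbp, Tef and Hlf together over that of Nfil3. This ratio was 5.45 in HFOB, 4.75 in HFLN and 1.504 in control. It was 3.62-fold higher in HFOB than in control and 3.16-fold higher in HFLN than in control. The activator sum itself was 88.1 FPKM in HFOB, 79.6 in HFLN and 52.6 in control. Nfil3 enters these folds with its 2.16-fold difference for HFOB and 2.09-fold difference for HFLN. The members were chosen with their contrast known, so nothing is read from the size of these folds. The lowest and highest ratios to Nfil3 that the bounds allow were 1.54 and 14.9 in HFOB, 1.44 and 12.6 in HFLN, and 0.312 and 4.27 in control. These ranges overlapped. Of the activator sum, Dbp made up 70.0% in HFOB, 66.9% in HFLN and 60.9% in control.

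Against Nfil3, Dbp alone stood at 3.81 in HFOB, 3.18 in HFLN and 0.917 in control, and Tef at 1.44 in HFOB, 1.39 in HFLN and 0.529 in control. In both diet groups Dbp and Tef were therefore above Nfil3, while in control Nfil3 was above all 3 activators. Within each group the interval of Nfil3 overlapped those of Dbp and Tef. Hlf stood below Nfil3, at 0.193 in HFOB, 0.180 in HFLN and 0.0584 in control. The full order of levels in HFOB was Dbp, Tef, Bhlhe40, Nfil3, Rora, Hlf, Ciart and Bhlhe41. HFLN showed the same order, and in control Bhlhe40 and Nfil3 led, followed by Dbp, Tef, Rora, Ciart, Hlf and Bhlhe41. Between neighbours in these orders the intervals were apart at a single step, between the fourth gene and Rora, in each group.

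**Figure D4:**
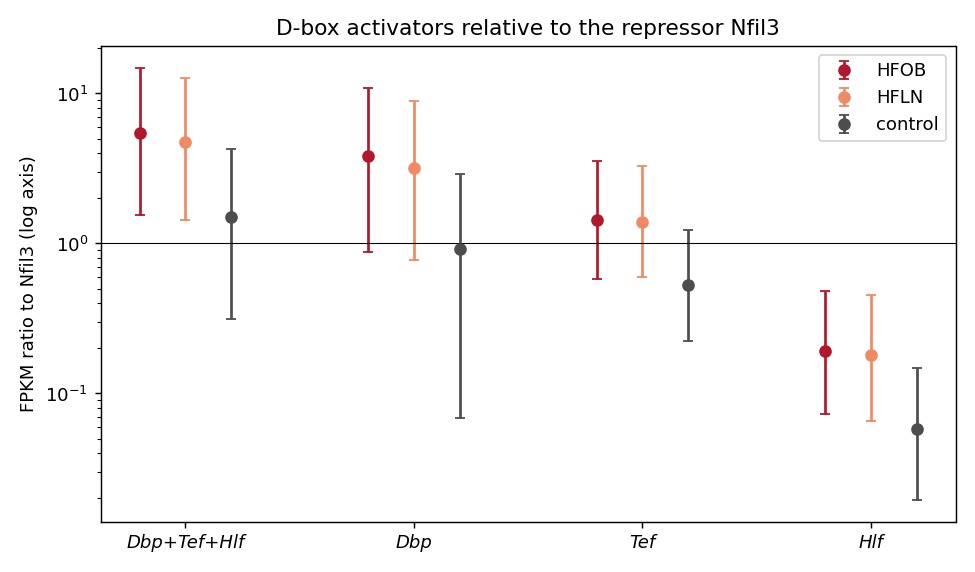
Ratio of the FPKM of D-box activators to that of Nfil3 in HFOB, HFLN and control, on a log axis, with bars from the lowest to the highest ratio that the deposited bounds allow. The summed ratio is 5.45 in HFOB, 4.75 in HFLN and 1.504 in control, and the bars overlap.

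Core clock genes were a list of 15 without the members above. Those considered had log2 ratios over control from -0.29 to 0.43 in HFOB and from -0.30 to 0.44 in HFLN. Dbp, Hlf, Nfil3 and Bhlhe40 lay outside these ranges in both comparisons, and Tef and Rora inside them. Bhlhe41 lay inside in HFOB only and Ciart in HFLN only. The members were chosen with their values known, so nothing is read from this contrast. Of 14 considered, 8 were higher and 6 lower in HFOB than in control, at a median log2 ratio of 0.04, and 9 were higher and 5 lower in HFLN, at 0.14. None passed, and none reached a ratio of 1.5 in either comparison. Per3, a period gene of the repressive arm, had 7.11 FPKM in HFOB (4.43 to 9.79), 7.07 in HFLN (4.44 to 9.70) and 5.27 in control (3.16 to 7.39). Nr1d2, a RORE repressor, had 19.3 FPKM in HFOB, 21.1 in HFLN and 15.6 in control, and Per2 4.15 in HFOB, 4.61 in HFLN and 3.49 in control. Nr1d1, the other RORE repressor, was added for the RORE core in the Nfil3 window after its values were seen. It stood at 46.7 FPKM in HFOB (19.9 to 73.5), 45.9 in HFLN (21.7 to 70.1) and 39.5 in control (17.9 to 61.1). These intervals overlap, and any part of Nr1d1 in the values of Nfil3 was not tested.

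Of 10 genes known to cycle in many mouse organs, Arntl, Nr1d1, Nr1d2, Per1, Per2 and Per3 are also in the core clock list. The 2 lists are therefore not separate sets. Among the 10, 8 were higher and 2 lower in HFOB than in control, and 6 were higher and 4 lower in HFLN. The median log2 ratios were 0.15 in HFOB and 0.17 in HFLN, and none passed. The same 3 genes, Per3, Nr1d2 and Per2, had the widest ratios. Known targets of PAR bZIP proteins in liver and brain lay on both sides of control: of 7 genes, 4 were abundant enough to be considered, and 1 was higher and 3 lower in HFOB, against 2 higher and 2 lower in HFLN. Pdxk, which makes the active form of vitamin B6, stood at 15.6 FPKM in HFOB, 20.4 in HFLN and 15.1 in control. Alas1, the first enzyme of haem synthesis, stood at 58.0 in HFOB, 57.8 in HFLN and 72.5 in control, and the cytochrome gene Cyp2b10, which has close relatives, at 0.653 in HFOB, 1.55 in HFLN and 0.883 in control. Cyp2b10 was considered only through HFLN, the group where it is highest, so its directions are not read. None of the 4 passed.

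Early-response genes, which stimuli induce within minutes, were lower in both diet groups for all 19 measured. The median log2 ratio was -0.88 in HFOB over control and -0.98 in HFLN over control, and those of Nfil3 and Bhlhe40 lay at -1.11 and -0.71 in HFOB and -1.06 and -0.69 in HFLN. In HFOB 4 of the 19 passed, all lower, and in HFLN 2 did, against 0.372% of all rows in HFOB and 0.283% in HFLN. The summed level of the list was 344 FPKM in HFOB, 325 in HFLN and 613 in control. Arc stood at 0.894 FPKM in HFOB, 1.05 in HFLN and 6.43 in control, and Fosb at 0.826 in HFOB, 1.08 in HFLN and 5.75 in control. Nr4a1 stood at 15.3 FPKM in HFOB, 19.5 in HFLN and 42.8 in control, and Ier3 at 23.0 in HFOB, 27.1 in HFLN and 60.9 in control. These 2 passed in HFOB and not in HFLN, and that difference was not tested. Nr4a3, which reached 1 FPKM only in control, had 0.471 FPKM in HFOB, 0.513 in HFLN and 1.34 in control and did not pass. The part of this list in the values of Nfil3 and Bhlhe40 was not tested.

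Of 7 genes known to be induced by glucocorticoids, which also set peripheral clocks, 5 were higher and 2 lower in HFOB than in control, at a median log2 ratio of 0.07. In HFLN 6 were higher and 1 lower, at 0.13, and none passed in either comparison. Per1 and Tsc22d3 of this list are also in the list of cycling genes. Zbtb16 stood at 2.14 FPKM in HFOB, 1.82 in HFLN and 1.41 in control, Tsc22d3 at 44.0 in HFOB, 42.9 in HFLN and 37.4 in control, and Mt2 at 311 in HFOB, 270 in HFLN and 373 in control.

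The summed markers of luteal cells, theca cells, granulosa cells, endothelium and erythrocytes were also lower in both diet groups than in control. No single marker of these passed. The 3 endothelial markers summed to 68.1 FPKM in HFOB, 72.8 in HFLN and 76.7 in control. Most of the sum of the theca list was Cyp11a1, at 3120 FPKM in HFOB, 3054 in HFLN and 3608 in control, with intervals that reach 0. That sum is not read as an amount of theca cells. Most of the granulosa sum was Inha, at 1465 FPKM in HFOB, 1360 in HFLN and 1712 in control. The 3 luteal markers summed to 1632 FPKM in HFOB, 1267 in HFLN and 2855 in control, most of it Akr1c18, a progesterone-degrading enzyme whose interval reaches 0 in every group. The median log2 ratio of these 3 over control was -0.72 in HFOB and -0.01 in HFLN. The 3 erythrocyte markers summed to 178 FPKM in HFOB, 135 in HFLN and 240.0 in control, and all 3 were lower in each diet group. Of 4 genes in the theca list 3 were lower in each diet group, among them Cyp17a1, the enzyme of androgen synthesis, at 191 FPKM in HFOB, 183 in HFLN and 346 in control. Star, the other gene of that list, was higher in each, at 169 FPKM in HFOB, 230 in HFLN and 147 in control. Of 5 granulosa markers 3 were lower in HFOB and 5 in HFLN, at median log2 ratios over control of -0.12 in HFOB and -0.30 in HFLN. Cyp19a1, the aromatase gene, had the lowest ratios of the list, at 12.2 FPKM in HFOB, 14.5 in HFLN and 20.7 in control. Foxl2 stood at 136 FPKM in HFOB, 129 in HFLN and 136 in control. The rows of Akr1c18 and Foxl2 each hold 2 gene symbols, so their values may not be of the named gene alone. The same holds for Insl3 of the theca list, for Hbb-bs and Hba-a1 of the erythrocyte list, and for Klrb1c of the NK and T cell list. All 5 genes of the oviduct and cilia list lay below control in HFOB and above it in HFLN, at median log2 ratios over control of -0.31 in HFOB and 0.68 in HFLN. The part of these markers in the values of the members and of the early-response genes was not tested. The marker genes named here and above were chosen after their values were seen.

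**Figure D5:**
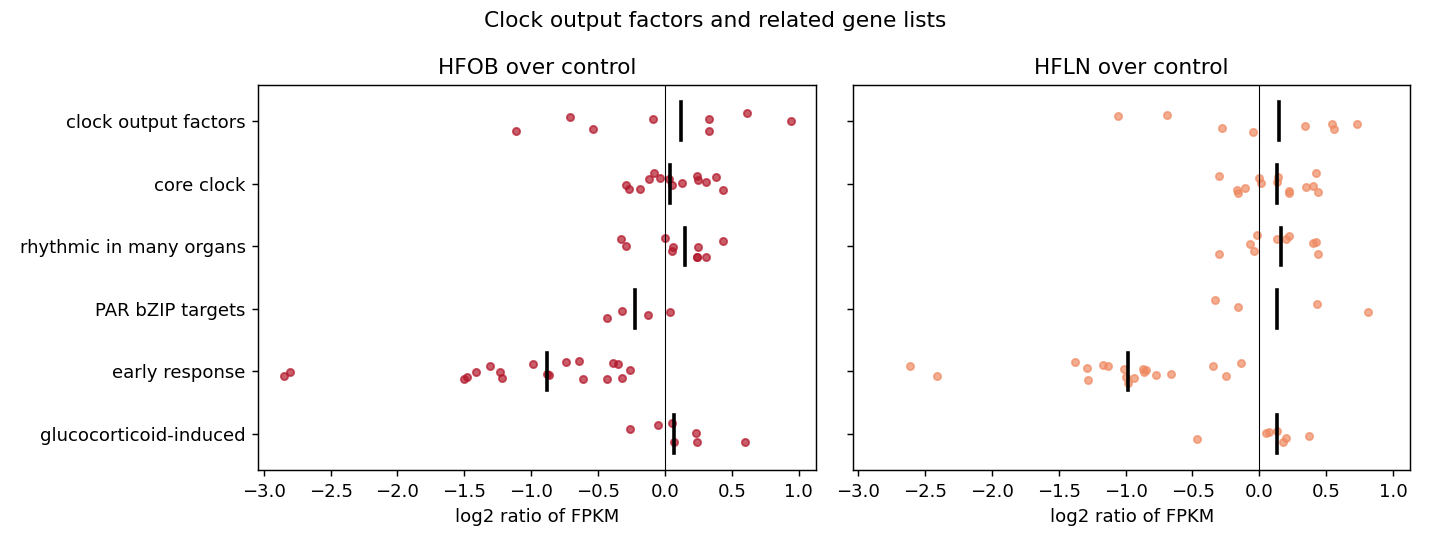
Log2 ratio of FPKM over control for the 8 clock output factors and 5 related gene lists, in HFOB and HFLN, 1 point per gene with the median as a bar. All 19 early-response genes lie below 0 in both panels, while core clock genes stay between -0.30 and 0.44.

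Genes with a like pattern were sought among 9473 protein-coding rows of at least 5 FPKM on average, by the Euclidean distance between the pairs of log2(FPKM + 1) ratios over control. Only 2 ratios from 3 group values enter this measure, and the control values enter both. Closest to Nfil3 (-1.07 in HFOB and -1.02 in HFLN) were Kctd11, an adaptor of ubiquitin ligases, at a distance of 0.10, the heat-shock chaperone gene Hspa1a, which may share reads with its near-identical copy Hspa1b, at 0.10, and Errfi1, a feedback inhibitor of the EGF receptor, at 0.11. Kctd11 stood at 5.24 FPKM in HFOB, 5.58 in HFLN and 12.9 in control, and Errfi1 at 26.0 in HFOB, 29.2 in HFLN and 59.9 in control. No row lay as close to Dbp (0.92 in HFOB and 0.71 in HFLN). Its nearest were the glycoprotein gene Gpnmb at 0.30, Stc1, which encodes the hormone stanniocalcin-1, at 0.32, and Cxxc4 at 0.35. Gpnmb stood at 26.4 FPKM in HFOB, 17.0 in HFLN and 12.3 in control, and Stc1 at 34.7 in HFOB, 30.4 in HFLN and 21.2 in control.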

How the data were processed

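Ovarian RNA of 9 mice was sequenced after messenger RNA selection with a stranded library kit, per the labels' protocols. Build mm10 and the tools Cuffdiff 2.2.1.3, Cufflinks 2.2.1.0, TopHat2 2.1.0 and Trimmomatic 0.32.3 were used, per the submitters' processing notes. The annotation, the scaling between libraries, the strand setting and the confidence level of the bounds are not stated in those notes. The authors deposited FPKM per group with 2 bounds and a status, per the file headers. Counts and depth per animal were not analysed here, so no test over animals was made.

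Here, 99.2% of 35531 RefSeq transcript identifiers were matched to symbols of GRCm38.p6. Ratios are plain ratios of FPKM. A row was considered when its highest group value was at least 1 FPKM and its status OK. The call rules were checked on simulated data with intervals narrower than those of any member. That check shows only that the rules compute as written, and not how they behave on these data. Python 3.11.15 with pandas 2.3.3 was used.

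Members, gene lists and rules were chosen with earlier results of these data known. Named beside the members, outside the marker lists, were list genes that passed, the 3 with the widest ratio in each list, and the 3 genes closest to Dbp and to Nfil3. The alternatives were pseudocounts of 0.1 and 1, other filters and folds, median scaling, rows summed per symbol, and the composition of the activator sum.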

Additional observations from a re-analysis of the deposited data

How the results depend on the processing

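No paired analysis was possible because the table holds 1 value per group and no value of a single animal, and leaving out animals was not run for that reason. The count of members passing was 0 in all 3 comparisons with pseudocounts of 0.1 and 1, no filter on low values, a minimum of 5 FPKM, a ratio of at least 2, no fold threshold, and median scaling. The intervals of all 8 members overlap, so all of these but median scaling could give no other count and say nothing of stability. With all rows of a symbol summed and no interval, 4 members reached a ratio of 1.5 in HFOB against control and 3 in HFLN against control. That is as many as on the ratio alone, which was added after the values were seen (4 and 3). Only Tef and Rora have more than 1 row, so summing could change no other member. With the combined interval, also added later, 1 member passed in each comparison with control. Of the lists, early-response genes passed in 4 cases in HFOB and 2 in HFLN. With the combined interval and a ratio of at least 1.5, 7 passed in HFOB and 8 in HFLN. Counted without the ratio condition, the combined interval excluded 0 in 0.567% of all rows in each comparison with control. On the ratio alone 14 passed in HFOB and 16 in HFLN, all lower (4.48% of all rows in HFOB and 4.29% in HFLN). On the ratio alone 1 target of PAR bZIP proteins was past 1.5 in HFLN against control and 1 in HFOB against HFLN, both times Cyp2b10, which reached 1 FPKM only in HFLN and whose intervals overlap, and 1 glucocorticoid-induced gene in HFOB against control. These differences follow from how strict each rule is. Other makeups of the activator sum say nothing of the stability of its ratio to Nfil3, since the 2.16-fold and 2.09-fold difference of Nfil3 stands in each of them, and median scaling cancels in a ratio within a group. Of 96 single ratios recomputed, 93 kept their direction and their side of 1.5. The exceptions were Hlf in HFOB over control, at 1.36 with a pseudocount of 1, and 2 ratios of HFOB over HFLN close to 1, Tef at 1.00 with median scaling and Rora at 1.03 with rows summed. Median scaling removed median log2 ratios to control of -0.021 in HFOB and -0.017 in HFLN, and so moved the values of both groups up slightly. Summing leaves a member with 1 row as it was, and no pseudocount can reverse a direction. The 93 unchanged ratios therefore say little of stability. Depth is unknown, so what it limits could not be given.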
